A study of Mus musculus with 9 samples.

Results

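Potassium channel genes were followed in the striatum of mouse embryos in which Ebf1, a transcription factor of direct-pathway striatal projection neurons (dSPN), had been inactivated. The genes were all protein-coding genes whose GENCODE M21 symbol begins with Kcn, which gave 94 of the 44886 genes counted. A count was present for 91 of them in at least 1 of the 9 libraries and for 82 in all 9, and 80 had enough counts to be tested.

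Potassium channels let potassium leave or enter a neuron along its gradient, and so set the resting potential, shape the repolarization of the action potential and limit repetitive firing. Pore-forming alpha subunits fall into voltage-gated families, inward rectifiers, tandem-pore leak channels and channels gated by internal calcium or sodium, and auxiliary subunits alter their trafficking and gating. Mature striatal projection neurons are known for a very negative resting potential held by inward rectifiers and for A-type and slowly inactivating currents that delay the first spike. The striatum at this embryonic stage holds young projection neurons of the direct and indirect pathways (dSPN and iSPN) beside interneurons, progenitors and glia.

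The 9 libraries came from 3 Control, 3 Islet1Cre;Ebf1fl/- and 3 Dlx5/6::Cre;Ebf1fl/- embryos at E17.5, each library taken as 1 embryo, labelled as striatum of strain C57BL/6. All embryos descended from Ebf1fl/fl mothers and from fathers that carried an Ebf1 null allele and Islet1Cre or Dlx5/6::Cre, so the floxed allele is shared by every group. Controls were heterozygous embryos by the study's methods, and the labels give no further genotype for them. The drivers differ in reach, since Islet1Cre spares iSPN and most interneurons and Dlx5/6::Cre acts in these as well. The Islet1Cre line was kept on a B6D2F1/J background. Ebf1 had 7945 to 14208 normalized counts in the controls and 11774 to 15343 in the mutants, so its counts, taken over the whole gene, do not check the genotypes.

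Each library held between 16.5 and 41.5 M counts, and potassium channel genes took 0.152 to 0.186% of them. Markers of projection neurons were present in all libraries. The library of Dlx5/6::Cre;Ebf1fl/- embryo 1 stood apart: its summed marker levels of dividing progenitors (107 CPM per kb, against 36.1 to 46.5 in the controls and Islet1Cre;Ebf1fl/- embryos) and cortical excitatory neurons (67.4, against 13.1 to 29.6 in the controls) were the highest of the 9. This library also held the lowest normalized count for 27 of the 80 tested potassium channel genes (33.8%, against 21.7% of all genes tested) and the highest for 12 (15%, against 22.9%). Control 3 and Islet1Cre;Ebf1fl/- embryo 3 had counts of both Xist (12552 and 4062) and Y-linked genes (307 and 1369). Whether these 2 libraries hold tissue of more than 1 embryo is unknown. Control 2 had 4653 Y-linked counts and 4 of Xist, while no Dlx5/6::Cre;Ebf1fl/- library had more than 1 Y-linked count. Sex was thus not balanced across the groups. Embryo codes begin with the letters IE or D, and Control 3 shares the D prefix with the Dlx5/6::Cre;Ebf1fl/- embryos while the other controls share IE with the Islet1Cre;Ebf1fl/- embryos.

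In the controls, 50 of the 94 genes reached 1 CPM per kb, the TMM-scaled share of a library's counts (CPM) divided by the exon length in kilobases and the scale used here to compare levels between genes, and 21 reached 5. The highest level was that of Kcnh4, which encodes an ELK voltage-gated channel, at 19.9 ± 1.3 (SD, n = 3 embryos). Other genes of high level included Kcnt1, which encodes the sodium-activated channel Slack, at 13.5 ± 3.48, Kcnmb4 (13.3 ± 0.815), the neuronal beta subunit of large-conductance calcium-activated channels, and Kcnh2 (12.04 ± 0.657), an ERG channel. Kcnd2 (12.02 ± 2.55) carries A-type current, Kcnk2 (11.8 ± 0.314) encodes the leak channel TREK-1 and Kcna6 (11.6 ± 0.664) a Shaker channel. Kcnk1 (9.94 ± 0.334), the leak channel TWIK-1, and Kcnn1 (9.87 ± 0.778), a small-conductance calcium-activated channel, followed. The control embryos of each gene named here overlapped with those of the next one named, except that every control was higher for Kcnh4 than for Kcnt1 and for Kcna6 than for Kcnk1.

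**Figure D1:**
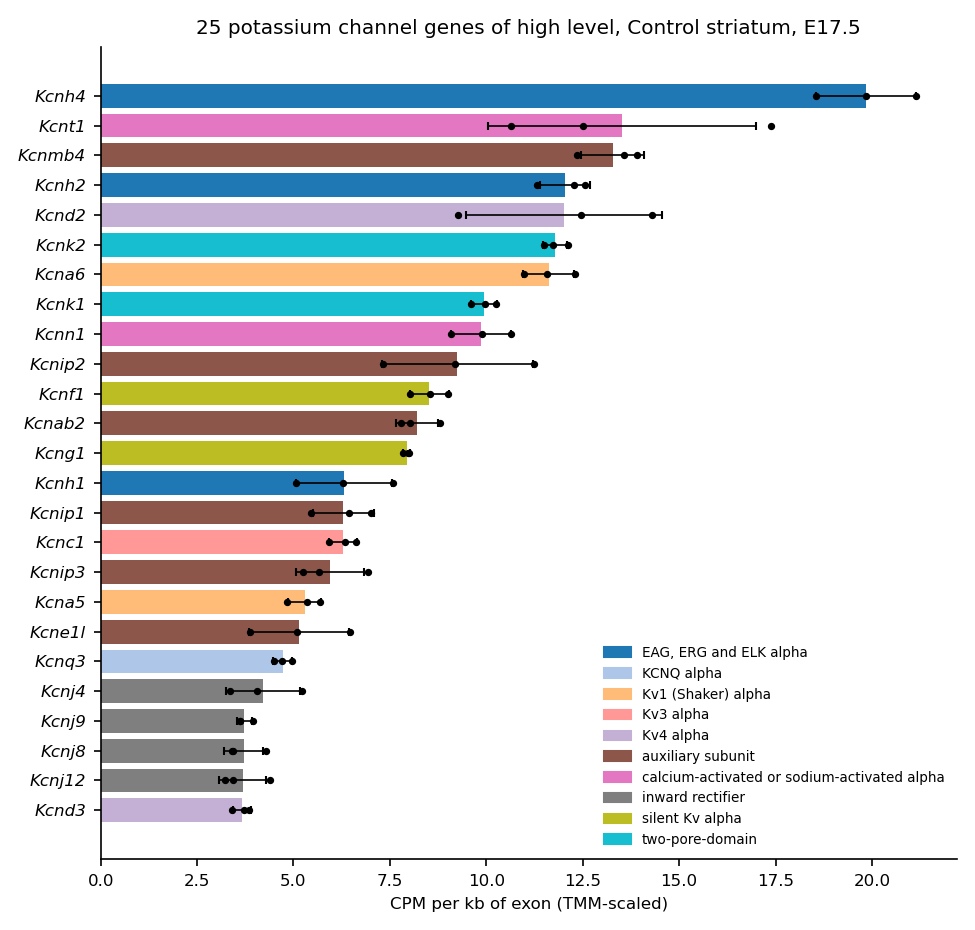
Levels of 25 potassium channel genes of high level in the 3 Control embryos, in TMM-scaled CPM per kb of exon (horizontal axis). Bars are means, whiskers SD, points embryos and colours channel classes. Kcnh4 (19.9) leads, and the whiskers of most neighbours overlap.

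Of the summed control level, the 17 auxiliary subunits held 19.4% and the 8 EAG, ERG and ELK channels 15.4%. Inward rectifiers, the class of the adult resting conductance, held 6.81% over 15 genes, led by Kcnj4 at 4.21 ± 0.956 CPM per kb. No count was found for Kcna10, Kcnk7 and Kcnmb3, which over the 281 M counts of all libraries allows up to 0.0107 CPM by counting error alone. The other 11 untested genes, Kcna7, Kcne1, Kcne2, Kcng4, Kcnj1, Kcnj13, Kcnk15, Kcnk16, Kcnk18, Kcnn4 and Kcnv2, had at most 59 counts in total, while the median tested gene had 2509.

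Few potassium channel genes were called with Ebf1 inactivation in the edgeR fit of all 9 libraries. Against Control, edgeR's quasi-likelihood test with Benjamini-Hochberg adjustment over 16368 genes called 0 of 80 in Islet1Cre;Ebf1fl/- embryos, where 0.971% of all genes were called, and 3 of 80 in Dlx5/6::Cre;Ebf1fl/- embryos, where 2.39% were. The 3 were Kcna6, lower as were 1.34% of all genes, and Kcnip1 and Kcnk13, higher as were 1.05%. Below, a gene passed or was called where this fit of all 9 libraries called it, unless another fit is named. Among genes with an adjusted p, DESeq2 called 6 of 81 in Islet1Cre;Ebf1fl/- embryos (7.41%, against 2.35% of all genes) and 8 of 79 in Dlx5/6::Cre;Ebf1fl/- embryos (10.1%, against 5.27%). The 6 included Kcna6, Kcnh7, Kcnip1, Kcnk13 and Kcnt2, and the 8 included Kcna6, Kcnh2, Kcnh7, Kcnip1, Kcnj3, Kcnj4 and Kcnk13. Without Dlx5/6::Cre;Ebf1fl/- embryo 1, edgeR called 6 of 80 in each mutant (7.5%), beside 2.38% and 3.68% of all genes in the respective mutants. They were Kcna6, Kcnh7, Kcnip1, Kcnk13, Kcnq5 and Kcnt2 in Islet1Cre;Ebf1fl/- embryos, and included Kcna6, Kcnip1, Kcnk13, Kcnk2 and Kcnq5 in Dlx5/6::Cre;Ebf1fl/- embryos. At an unadjusted p under 0.05, 11 of 80 passed in Islet1Cre;Ebf1fl/- embryos (13.8%, against 7.93% of all genes) and 20 of 80 in Dlx5/6::Cre;Ebf1fl/- embryos (25%, against 15.5%). The median log2 fold change of the 80 genes was -0.01 and -0.004 in the respective mutants, beside -0.002 and 0.01 over all genes, with 39 genes above and 41 below 0 in each. Both comparisons use the same 3 controls, and where a pair of log2 fold changes is given below without a group, Islet1Cre;Ebf1fl/- comes first and Dlx5/6::Cre;Ebf1fl/- second. A 95% interval reached 0.43 on either side of the log2 fold change for the median gene without a call, and 57 of 80 intervals in Islet1Cre;Ebf1fl/- embryos and 55 of 77 in Dlx5/6::Cre;Ebf1fl/- embryos lay within 1 of 0.

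**Figure D2:**
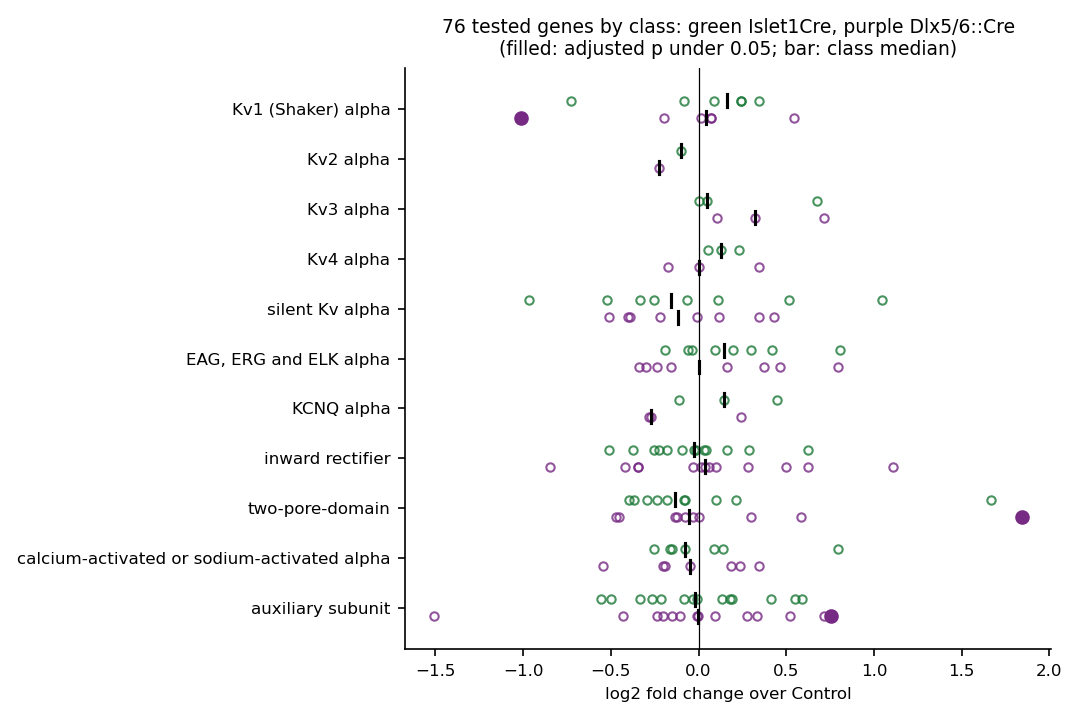
Log2 fold change over Control (horizontal axis) of 76 tested potassium channel genes by class, in Islet1Cre;Ebf1fl/- (green) and Dlx5/6::Cre;Ebf1fl/- (purple) embryos. Filled points passed the adjusted threshold and bars mark the class medians of the genes drawn. Most medians lie near 0, and only Kcna6, Kcnip1 and Kcnk13 are filled, all in Dlx5/6::Cre;Ebf1fl/- embryos.

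The sequences upstream of these 3 genes are shown because they were the only potassium channel genes that passed the threshold. Each is the 250 bases before the transcription start in RefSeq (GRCm38.p6), written 5′ to 3′ along the gene, with CG pairs in capitals, from chr6:126740675-126740924 on the minus strand for Kcna6, chr11:33993194-33993443 on the minus strand for Kcnip1 (the farthest upstream of 3 starts) and chr12:99964249-99964498 on the plus strand for Kcnk13.
Kcna6: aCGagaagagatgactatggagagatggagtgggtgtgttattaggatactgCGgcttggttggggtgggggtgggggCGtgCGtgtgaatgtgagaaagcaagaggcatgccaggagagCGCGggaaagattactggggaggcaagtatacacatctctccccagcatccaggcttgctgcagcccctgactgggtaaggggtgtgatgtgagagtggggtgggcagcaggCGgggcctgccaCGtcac
Kcnip1: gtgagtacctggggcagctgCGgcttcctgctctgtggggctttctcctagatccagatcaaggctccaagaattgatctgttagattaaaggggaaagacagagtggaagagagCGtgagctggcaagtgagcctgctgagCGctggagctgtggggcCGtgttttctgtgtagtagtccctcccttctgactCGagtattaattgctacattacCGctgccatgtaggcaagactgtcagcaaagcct
Kcnk13: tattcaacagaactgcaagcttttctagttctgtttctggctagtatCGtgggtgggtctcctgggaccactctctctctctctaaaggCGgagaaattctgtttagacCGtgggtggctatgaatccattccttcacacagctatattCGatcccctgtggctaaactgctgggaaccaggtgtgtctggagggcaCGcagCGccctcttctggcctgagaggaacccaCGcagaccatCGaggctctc
They held 8, 6 and 8 CG pairs, beside a median of 6 over 32851 promoters of the same length. The core to which EBF factors are known to bind, TCCC and GGGA with 2 bases between them, reads alike on both strands and was in none of the 3, in 0 of 94 promoters of 69 potassium channel genes and in 0.779% of all promoters. The GC box GGGCGG and the TATA box TATAAA, searched on both strands, were absent from these 3 windows too, and were found in 32.7% and 12.4% of all promoters. A window without a match holds no such letters and says nothing of binding elsewhere.

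Kcna6 encodes Kv1.6, a Shaker-type delayed rectifier, and lies on chromosome 6 from 126708329 to 126740674 of GRCm38 on the minus strand. Its normalized count (counts divided by size factors) was 2069.5, 2209 and 1968 in Control, 1191, 1149 and 1449.7 in Islet1Cre;Ebf1fl/- and 753, 1235 and 1113 in Dlx5/6::Cre;Ebf1fl/- embryos. All 6 mutant embryos lay below all 3 controls, and Dlx5/6::Cre;Ebf1fl/- embryo 1 was the lowest. The log2 fold change over Control was -1.01 ± 0.16 (SE, adjusted p = 0.00971, 95% interval -1.36 to -0.66) in Dlx5/6::Cre;Ebf1fl/- embryos, or 0.497 times the control level. In Islet1Cre;Ebf1fl/- embryos the value was -0.73 ± 0.16 (SE, adjusted p = 0.0744, 95% interval -1.08 to -0.37), which missed the threshold. The difference between the mutants was -0.28 (adjusted p = 0.868, 95% interval -0.64 to 0.07). Without Dlx5/6::Cre;Ebf1fl/- embryo 1 the log2 fold change in Dlx5/6::Cre;Ebf1fl/- embryos was -0.83 (adjusted p = 0.00255). With the code prefix as a covariate it was -0.93 and missed the threshold (adjusted p = 0.185). An antisense gene, Gm26673, overlaps 39.6% of the exon bases of Kcna6 but had 9 counts in all against 13764.

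Log2 fold changes were below 0 for 6 of 8 dSPN markers in Islet1Cre;Ebf1fl/- and 7 of 8 in Dlx5/6::Cre;Ebf1fl/- embryos. Of all 16368 genes, 8259 and 7809 were below 0 in the respective mutants. In Islet1Cre;Ebf1fl/- embryos Isl1, counted among those below, was at -0.004 and Foxp2 at 0.03. In Dlx5/6::Cre;Ebf1fl/- embryos 6 of the 8 lay below all controls, as did 11.3% of all genes. The part of these markers in the values of Kcna6 was not tested. The summed level of 8 such markers ran from 145 to 195 CPM per kb in the controls, from 131 to 155 in Islet1Cre;Ebf1fl/- embryos, which overlapped, and from 91.8 to 114 in Dlx5/6::Cre;Ebf1fl/- embryos, which were below. In Islet1Cre;Ebf1fl/- embryos 2 of the 8 were called lower (Slc35d3 and Zfp521), as were 0.501% of all genes, and in Dlx5/6::Cre;Ebf1fl/- embryos 3 (these and Chrm4), as were 1.34%. Chrm4, Slc35d3 and Zfp521 had all Islet1Cre;Ebf1fl/- embryos below the controls, while Drd1, which encodes the dopamine receptor of these neurons, had them all above, with log2 fold changes of 0.67 (adjusted p = 0.346) and 0.53 (adjusted p = 0.293). In whole striatum, fewer cells of a type and less RNA per cell cannot be told apart. From stained sections of the same stage, the study reported that the overall shares of dSPN and iSPN were kept. It also named Slc35d3 and Zfp521 among the genes deregulated in both mutants.

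None of the 5 other Shaker genes tested passed. Kcna1, Kcna2, Kcna3, Kcna4 and Kcna5 had log2 fold changes from -0.08 to 0.35 in Islet1Cre;Ebf1fl/- and from -0.19 to 0.54 in Dlx5/6::Cre;Ebf1fl/- embryos, with adjusted p of at least 0.356 in edgeR. Kcna5, which encodes Kv1.5, gave 506, 526 and 594 normalized counts in Islet1Cre;Ebf1fl/- embryos, all above the controls at 416, 463 and 491, whereas the Dlx5/6::Cre;Ebf1fl/- embryos were split at 330.3, 572 and 536. Kcna1 did likewise, at 351, 352 and 367 in Islet1Cre;Ebf1fl/- embryos against 253, 309 and 340 in Control. Its Dlx5/6::Cre;Ebf1fl/- embryos were split at 207, 368 and 333. Kcna4, the rapidly inactivating member, was low in Dlx5/6::Cre;Ebf1fl/- embryo 1 (159.8) and between 321 and 465 in the other 8.

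**Figure D3:**
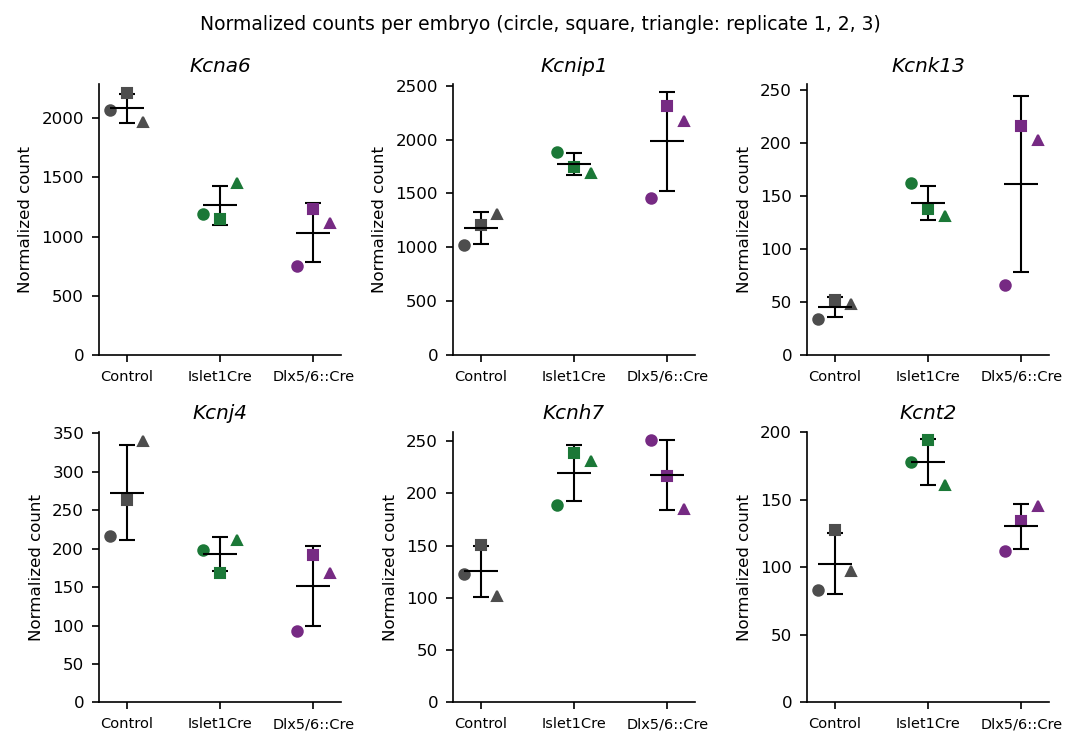
Normalized counts of 6 potassium channel genes in each embryo (vertical axes from 0). Symbols give the replicate, horizontal bars the mean and whiskers the SD of 3 embryos. For Kcna6 and Kcnj4 all mutant embryos lie below the controls, for Kcnip1, Kcnk13 and Kcnh7 all lie above, and for Kcnt2 the Dlx5/6::Cre;Ebf1fl/- embryos overlap with the controls.

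Kcnip1 encodes KChIP1, a calcium-binding protein that joins Kv4 channels and brings them to the membrane. Its normalized count was 1018, 1204 and 1309 in Control, 1882, 1745 and 1686 in Islet1Cre;Ebf1fl/- and 1463, 2313 and 2175 in Dlx5/6::Cre;Ebf1fl/- embryos. Every mutant embryo was above every control, with Dlx5/6::Cre;Ebf1fl/- embryo 1 the nearest to them. The log2 fold change was 0.75 ± 0.15 (SE, adjusted p = 0.0311, 95% interval 0.41 to 1.09) in Dlx5/6::Cre;Ebf1fl/- embryos, 1.69 times the control level, and 0.59 ± 0.16 (SE, adjusted p = 0.15, 95% interval 0.24 to 0.93) in Islet1Cre;Ebf1fl/- embryos. Without Dlx5/6::Cre;Ebf1fl/- embryo 1 the value was 0.93 in Dlx5/6::Cre;Ebf1fl/- embryos (adjusted p = 0.00091), and Islet1Cre;Ebf1fl/- embryos then passed at 0.59 (adjusted p = 0.00821). The call in Dlx5/6::Cre;Ebf1fl/- embryos was lost on leaving out singly any of the other 8 embryos (adjusted p = 0.0533 to 0.136), with only the 6 samples compared (adjusted p = 0.103) and with the code prefix as a covariate (adjusted p = 0.543). Within embryos of the IE prefix, 3 Islet1Cre;Ebf1fl/- against 2 controls, it was 0.68 (adjusted p = 0.0209). Kcnip1 spans 33629339 to 33993152 on chromosome 11, 10.62 Mb from Ebf1 on the same chromosome.

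None of the Kv4 channels that KChIP proteins bind passed. Kcnd3 gave normalized counts of 1075, 1116 and 988 in Control, 1151, 1442 and 1133 in Islet1Cre;Ebf1fl/- and 1331, 1350.4 and 1350.2 in Dlx5/6::Cre;Ebf1fl/- embryos, and all 6 mutant embryos were above the controls. Its log2 fold change was 0.23 (adjusted p = 0.607) and 0.34 (adjusted p = 0.127) in the respective mutants. Kcnd2, the more abundant Kv4 gene, had log2 fold changes of 0.05 and 0.004, and Kcnd1 0.13 and -0.17. The other KChIP genes were Kcnip2 at 0.19 (adjusted p = 0.999) and -0.43 (adjusted p = 0.339), Kcnip3 at -0.08 and -0.01, and Kcnip4 at 0.55 and 0.71. Kcnip4 was scarce, with at most 159 normalized counts, and its intervals were wide.

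Among the other auxiliary subunits none passed. Kcnab2, the Kv-beta2 subunit of Shaker channels, had normalized counts of 1345, 1312 and 1481 in Control, 1257, 1154 and 1165 in Islet1Cre;Ebf1fl/- and 963, 1258 and 1288 in Dlx5/6::Cre;Ebf1fl/- embryos. All mutant embryos were below the controls, by log2 fold changes of -0.21 (adjusted p = 0.75) and -0.24 (adjusted p = 0.336). Kcnab1 and Kcnab3 had log2 fold changes of 0.14 and 0.18 in Islet1Cre;Ebf1fl/- embryos and 0.09 and 0.28 in Dlx5/6::Cre;Ebf1fl/- embryos. Kcnmb4, among the highest in the controls, had log2 fold changes of -0.03 and -0.002 (adjusted p = 0.994, 95% interval -0.21 to 0.21). The antisense gene Kcnmb4os2, with 2206 counts in all against 12355 for Kcnmb4, overlaps its exons. Kcnmb1, a BK beta subunit of smooth muscle located within the span of Kcnip1 on the opposite strand, had normalized counts of 9.04, 9.8 and 13.5 in Control, 13.6, 8.51 and 10.7 in Islet1Cre;Ebf1fl/- and 3.24, 5.46 and 2.45 in Dlx5/6::Cre;Ebf1fl/- embryos. Its Dlx5/6::Cre;Ebf1fl/- embryos were all below the controls at a few counts each, with a log2 fold change of -1.51 (adjusted p = 0.142, 95% interval -2.53 to -0.48). Kcnrg, Kcne1l, Kcne3, Kcne4 and Kcnmb2 had adjusted p of at least 0.478.

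Kcnk13 encodes the tandem-pore channel THIK-1, a background potassium conductance known from microglia as well as from neurons. The gene lies on chromosome 12 from 99964499 to 100062682 on the plus strand. Its normalized count was 34.4, 52.3 and 48.1 in Control, 162, 138 and 131 in Islet1Cre;Ebf1fl/- and 65.8, 216 and 202 in Dlx5/6::Cre;Ebf1fl/- embryos. All mutant embryos were above all controls, and Dlx5/6::Cre;Ebf1fl/- embryo 1 was far below the 5 other mutants. The log2 fold change was 1.84 ± 0.38 (SE, adjusted p = 0.0326, 95% interval 1.00 to 2.69) in Dlx5/6::Cre;Ebf1fl/- embryos, 3.59 times the control level, and 1.67 ± 0.39 (SE, adjusted p = 0.0914, 95% interval 0.82 to 2.52) in Islet1Cre;Ebf1fl/- embryos, 3.18 times. Without Dlx5/6::Cre;Ebf1fl/- embryo 1 these became 2.21 (adjusted p = 0.000391) and 1.67 (adjusted p = 0.0016). This call too was lost on leaving out singly any of the other 8 embryos (adjusted p = 0.0554 to 0.148), with only the 6 samples compared (adjusted p = 0.11) and when the prefix entered the fit (adjusted p = 0.482). Within the IE prefix the Islet1Cre;Ebf1fl/- value was 1.72 (adjusted p = 0.0154).

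The part of microglia in the values of Kcnk13 was not tested in either mutant. All 6 microglial markers had counts in every library and none was called in either mutant. Their summed level ran from 26.3 to 28.2 CPM per kb in the controls, from 24.2 to 32.6 in Islet1Cre;Ebf1fl/- embryos, which overlapped, and from 31.5 to 36.6 in Dlx5/6::Cre;Ebf1fl/- embryos, which were above. The complement genes C1qa and C1qb had all Dlx5/6::Cre;Ebf1fl/- embryos above the controls, with log2 fold changes of 0.59 (adjusted p = 0.142) and 0.78 (adjusted p = 0.0858). The other 4, Csf1r, Cx3cr1, Aif1 and P2ry12, overlapped with the controls in both mutants, with log2 fold changes from -0.13 to 0.33 in Dlx5/6::Cre;Ebf1fl/- embryos, and all 6 overlapped in Islet1Cre;Ebf1fl/- embryos.

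The remaining leak channels lay on both sides of the controls and none passed. Kcnk2 (TREK-1) gave normalized counts of 1709, 1751 and 1807 in Control, 1999, 1967 and 2144 in Islet1Cre;Ebf1fl/- and 1837, 2400.3 and 2233 in Dlx5/6::Cre;Ebf1fl/- embryos, with every mutant embryo above the controls and log2 fold changes of 0.21 (adjusted p = 0.631) and 0.30 (adjusted p = 0.161). Without Dlx5/6::Cre;Ebf1fl/- embryo 1, Kcnk2 passed in Dlx5/6::Cre;Ebf1fl/- embryos at 0.40 (adjusted p = 0.0181). Kcnk1 (TWIK-1) gave normalized counts of 689, 673 and 646 in Control, 584, 391 and 564 in Islet1Cre;Ebf1fl/- and 429, 515 and 504 in Dlx5/6::Cre;Ebf1fl/- embryos, with every mutant embryo below the controls. Its log2 fold changes were -0.39 (adjusted p = 0.465) and -0.47 (adjusted p = 0.156). Antisense genes overlap 12.2% of the exon bases of Kcnk2 and 8.01% of those of Kcnk1, and the strand setting of the counting is not given in the sources used here. Kcnk10, or TREK-2, had log2 fold changes of -0.18 and -0.07, and Kcnk3, or TASK-1, -0.08 and -0.14. The 5 others tested, Kcnk4, Kcnk5, Kcnk6, Kcnk9 and Kcnk12, had below 50 normalized counts in each embryo and adjusted p of at least 0.632.

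**Figure D4:**
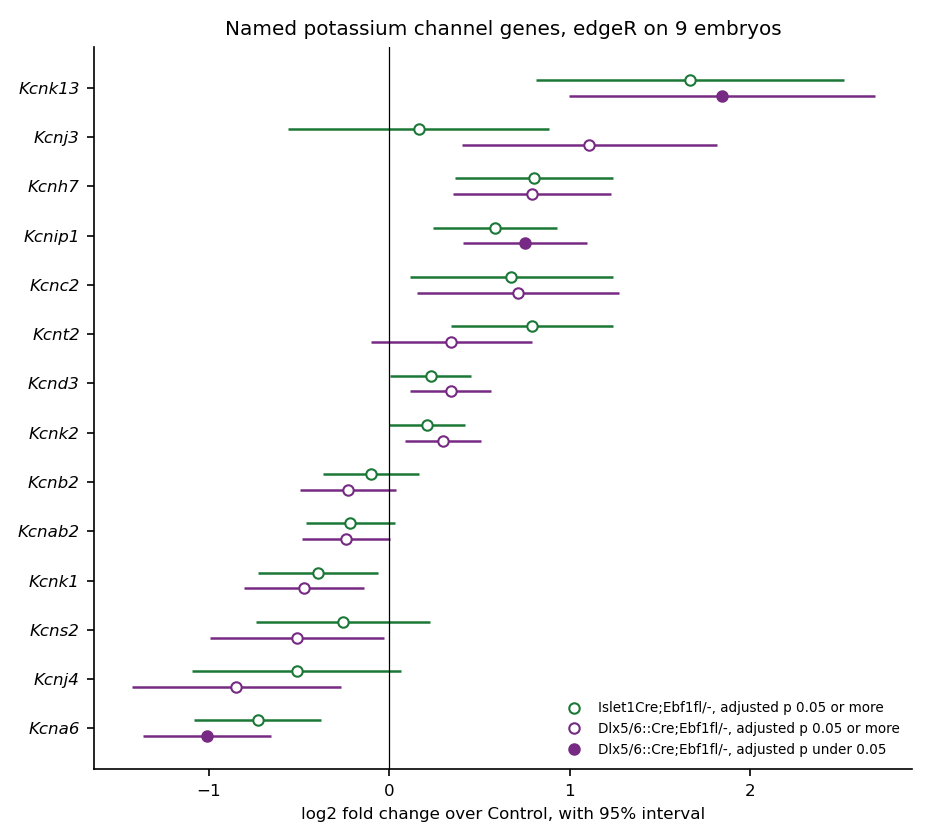
Log2 fold change over Control with 95% interval (horizontal axis) of the potassium channel genes named for their test or their embryo order, in Islet1Cre;Ebf1fl/- (green) and Dlx5/6::Cre;Ebf1fl/- (purple) embryos. Filled points passed the adjusted threshold. The 2 mutants share their controls. Genes named for their embryo order were chosen with both mutants on the same side of the controls, so their shared side of 0 follows from that choice. Kcnj3, named for its test, is at 0.16 and 1.11.

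None of the KCNQ channels, which carry slow non-inactivating currents, passed in edgeR with all 9 libraries and the filter on low counts. Kcnq5 was called in both mutants without Dlx5/6::Cre;Ebf1fl/- embryo 1. Kcnq3, a subunit of M channels, had log2 fold changes of -0.11 and -0.28 (adjusted p = 0.206). Kcnq5 gave normalized counts of 734, 864 and 792 in Control, 1056, 1013 and 1204 in Islet1Cre;Ebf1fl/- and 691, 1072 and 1066 in Dlx5/6::Cre;Ebf1fl/- embryos. It was above the controls in Islet1Cre;Ebf1fl/- embryos, at 0.45 (adjusted p = 0.365), and overlapped with them in Dlx5/6::Cre;Ebf1fl/- embryos, at 0.24 (adjusted p = 0.485), where embryo 1 was the lowest of the 9. Kcnq1 was scarce and had log2 fold changes of 0.15 and -0.27.

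Among EAG, ERG and ELK channels, Kcnh7, which encodes ERG3, was the member with the smallest p. It gave normalized counts of 123, 151 and 102 in Control, 189, 238 and 231 in Islet1Cre;Ebf1fl/- and 252, 217 and 185 in Dlx5/6::Cre;Ebf1fl/- embryos. All mutant embryos were above the controls, with log2 fold changes of 0.80 ± 0.20 (SE, adjusted p = 0.117, 95% interval 0.36 to 1.24) and 0.79 ± 0.20 (SE, adjusted p = 0.0723, 95% interval 0.36 to 1.23). Neither passed in edgeR with all 9 libraries and the filter on low counts. DESeq2 called both, as well as Kcnh2 in Dlx5/6::Cre;Ebf1fl/- embryos. In Islet1Cre;Ebf1fl/- embryos 2 of 19 alternatives called Kcnh7, DESeq2 and edgeR without Dlx5/6::Cre;Ebf1fl/- embryo 1. In Dlx5/6::Cre;Ebf1fl/- embryos 2 of 18 called it, DESeq2 among them. Kcnh2 (ERG1) went the other way in Dlx5/6::Cre;Ebf1fl/- embryos: 1282, 1401 and 1486 normalized counts, all below 1828, 1654 and 1794 in the controls, and 1867, 1659 and 1543 in Islet1Cre;Ebf1fl/- embryos, which overlapped. Its log2 fold change was -0.06 (adjusted p = 0.999) and -0.34 (adjusted p = 0.0908). Kcnh4, the highest gene of the controls, had log2 fold changes of -0.04 (adjusted p = 0.999) in Islet1Cre;Ebf1fl/- and -0.24 (adjusted p = 0.301) in Dlx5/6::Cre;Ebf1fl/- embryos. Kcnh1, Kcnh3, Kcnh5, Kcnh6 and Kcnh8 ranged from -0.19 to 0.42 and from -0.30 to 0.46 in the respective mutants.

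The other voltage-gated families held no call. Kcnc2, a fast Kv3 channel typical of interneurons, gave normalized counts of 110.4, 111 and 63.5 in Control, 133, 176 and 147 in Islet1Cre;Ebf1fl/- and 136, 196 and 137 in Dlx5/6::Cre;Ebf1fl/- embryos. All mutant embryos were above the controls, by 0.68 (adjusted p = 0.446) and 0.72 (adjusted p = 0.203). Kcnc1, another Kv3 gene, had log2 fold changes of 0.05 and 0.11. Kcnc4 had log2 fold changes of 0.01 and 0.32. Kcnb2, a Kv2 delayed rectifier, had log2 fold changes of -0.10 and -0.23 (adjusted p = 0.392). Of the silent subunits, which work only in partnership with Kv2 channels, Kcns2 gave normalized counts of 175, 229 and 216 in Control, 137, 175 and 209 in Islet1Cre;Ebf1fl/- and 113, 176 and 146 in Dlx5/6::Cre;Ebf1fl/- embryos, and the mutants overlapped with the controls. Its log2 fold change was -0.25 (adjusted p = 0.971) and -0.51 (adjusted p = 0.294). Kcnf1, the highest silent subunit, had 938, 956 and 1036 in Islet1Cre;Ebf1fl/- embryos, all below 1153, 1303 and 1233 in the controls, with -0.34 (adjusted p = 0.661), and overlapped in Dlx5/6::Cre;Ebf1fl/- embryos. The log2 fold changes of Kcng1, Kcng2, Kcng3, Kcns1, Kcns3 and Kcnv1 ran from -0.97 to 1.05 in Islet1Cre;Ebf1fl/- and from -0.40 to 0.43 in Dlx5/6::Cre;Ebf1fl/- embryos, with adjusted p of at least 0.473.

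Channels gated by internal ions held no call in edgeR with all 9 libraries and the filter on low counts. Kcnt2 was called in Islet1Cre;Ebf1fl/- embryos by DESeq2 and by edgeR without Dlx5/6::Cre;Ebf1fl/- embryo 1, and Kcnt1 in Dlx5/6::Cre;Ebf1fl/- embryos with no filter on low counts. Kcnt2, which encodes the sodium-activated channel Slick, gave normalized counts of 83.2, 127 and 97.2 in Control, 178, 194 and 161 in Islet1Cre;Ebf1fl/- and 112, 134 and 145 in Dlx5/6::Cre;Ebf1fl/- embryos. The Islet1Cre;Ebf1fl/- embryos were all above the controls and the Dlx5/6::Cre;Ebf1fl/- embryos overlapped with them. The log2 fold change was 0.79 ± 0.20 (SE, adjusted p = 0.132, 95% interval 0.34 to 1.24) in Islet1Cre;Ebf1fl/- and 0.35 ± 0.20 (SE, adjusted p = 0.438, 95% interval -0.10 to 0.79) in Dlx5/6::Cre;Ebf1fl/- embryos, and the difference between the mutants was -0.45 (adjusted p = 0.868, 95% interval -0.89 to -0.003). Kcnt1 had log2 fold changes of -0.15 (adjusted p = 0.999) and -0.54 (adjusted p = 0.205). Kcnma1, the pore of BK channels, had log2 fold changes of -0.16 and -0.20, and its lowest library was Dlx5/6::Cre;Ebf1fl/- embryo 1 at 1038 normalized counts. The small-conductance genes Kcnn1, Kcnn2 and Kcnn3 ranged from -0.26 to 0.14 and from -0.19 to 0.19. Kcnu1, a relative of the BK pore known from sperm, had log2 fold changes of -0.08 and 0.24.

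Inward rectifiers held no call in edgeR, while DESeq2 called Kcnj3 and Kcnj4 in Dlx5/6::Cre;Ebf1fl/- embryos. Kcnj4 (Kir2.3), of the family that holds the resting potential of mature projection neurons, gave normalized counts of 216, 263 and 339.6 in Control, 198, 168 and 211 in Islet1Cre;Ebf1fl/- and 92.8, 192 and 169 in Dlx5/6::Cre;Ebf1fl/- embryos. All mutant embryos were below the controls, and embryo 1 of the Dlx5/6::Cre;Ebf1fl/- group was the lowest. The log2 fold change was -0.51 (adjusted p = 0.737, 95% interval -1.09 to 0.07) and -0.85 (adjusted p = 0.143, 95% interval -1.43 to -0.27). The other Kir2 genes were Kcnj2, at 0.29 (adjusted p = 0.974) and 0.63 (adjusted p = 0.278), and Kcnj12, at -0.38 (adjusted p = 0.574) and -0.34 (adjusted p = 0.332). Kcnj3, a subunit of G protein-gated channels, gave normalized counts of 33.5, 63.7 and 61.6 in Control, 55.7, 66.0 and 55.5 in Islet1Cre;Ebf1fl/- and 159.8, 109 and 75.01 in Dlx5/6::Cre;Ebf1fl/- embryos. The Dlx5/6::Cre;Ebf1fl/- embryos were above the controls and the Islet1Cre;Ebf1fl/- embryos overlapped, with log2 fold changes of 0.16 (adjusted p = 0.999) and 1.11 (adjusted p = 0.116). Embryo 1, the highest for Kcnj3, also led the cortical marker sums of the Dlx5/6::Cre;Ebf1fl/- embryos, which were 67.4, 28.1 and 34.7 CPM per kb, against 13.1 to 29.6 in the controls. All 8 cortical markers had positive log2 fold changes in Dlx5/6::Cre;Ebf1fl/- embryos with 0 called, and their part in the value was not tested. An antisense gene, Gm26794, covers 31.1% of Kcnj3's exon bases and had 169 counts in all against 704. Kcnj9, another G protein-gated subunit, was 256, 404 and 416 in Dlx5/6::Cre;Ebf1fl/- embryos, below 508, 468 and 467 in the controls, at -0.42 (adjusted p = 0.255). Kcnj10, the glial rectifier, had log2 fold changes of 0.03 and 0.28. The remaining members, Kcnj5, Kcnj6, Kcnj8, Kcnj11, Kcnj14, Kcnj15 and Kcnj16, ran from -0.26 to 0.63 in Islet1Cre;Ebf1fl/- and from -0.35 to 0.50 in Dlx5/6::Cre;Ebf1fl/- embryos on the log2 fold change scale, with adjusted p of at least 0.552. Of the exon windows of Kcnj14, 24.6% also occur in another gene, and reads with several positions were discarded.

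Counting embryos without a model, 12 of the 80 genes had all 6 mutant embryos on the same side of all 3 controls: 6 above (7.5%, against 3.63% of all genes tested) and 6 below (7.5%, against 4.08%). With a mean of at least 100 normalized counts the genes above were Kcnip1, Kcnk13, Kcnk2, Kcnd3, Kcnc2 and Kcnh7, and those below included Kcna6, Kcnab2, Kcnj4 and Kcnk1. Kcng2, also below, had fewer counts. In Islet1Cre;Ebf1fl/- embryos alone 12 genes were above (15%, against 7.83%) and 12 below (15%, against 7.28%), and in Dlx5/6::Cre;Ebf1fl/- embryos 9 were above (11.2%, against 9.63%) and 16 below (20%, against 11.3%). These counts share the controls, and with 3 embryos per group an exact permutation test of a gene cannot give a p below 0.1.

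**Figure D5:**
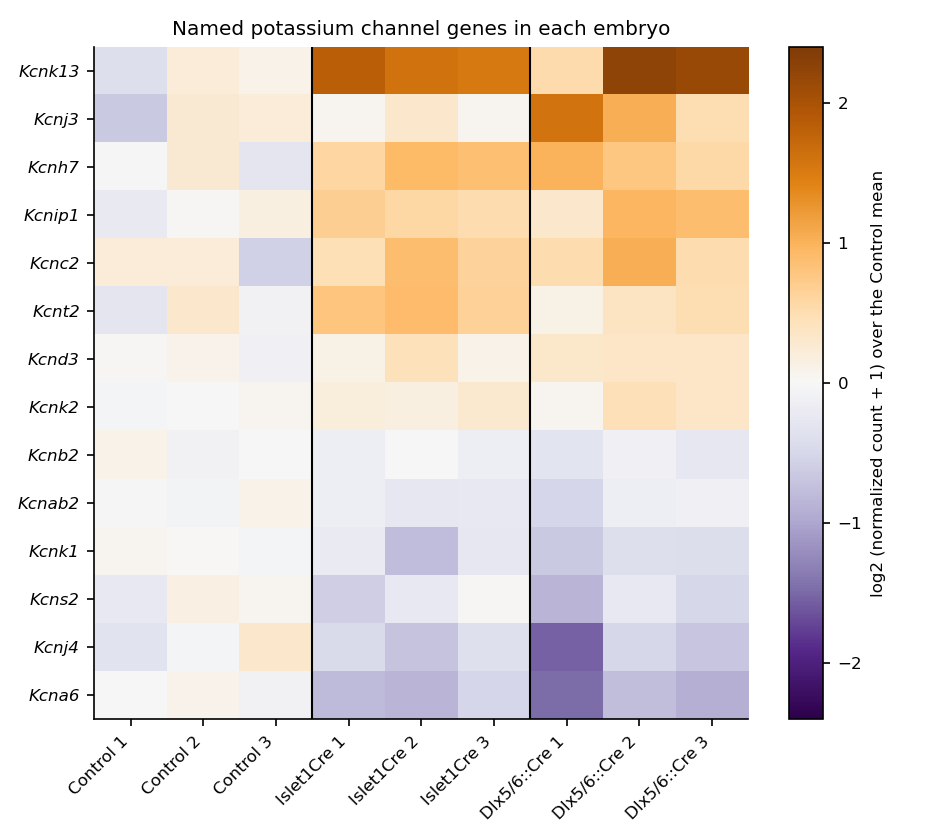
Log2 ratio of the normalized count (plus 1) of each embryo to the Control mean, for the potassium channel genes named for their test or their embryo order. Columns are embryos, orange is above and purple below the Control mean. Kcnk13 is high in all mutant embryos except the weaker Dlx5/6::Cre;Ebf1fl/- embryo 1, where Kcna6 and Kcnj4 are lowest.

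The mutants were also compared with each other. Of 80 potassium channel genes 0 passed in edgeR, as did 0 of all 16368 genes, while DESeq2 called 0 potassium channel genes and 18 of 15220 genes with an adjusted p. At an unadjusted p under 0.05, 7 of 80 differed (8.75%, against 5.16% of all genes, with 2.74% of all genes lower and 2.41% higher in Dlx5/6::Cre;Ebf1fl/- embryos). Kcnmb1, Kcnh2, Kcnip2, Kcnj9 and Kcnt2 were lower in Dlx5/6::Cre;Ebf1fl/- embryos, by log2 differences of -1.50, -0.28, -0.62, -0.47 and -0.45, and Kcnj3 and Kcne1l were higher, by 0.94 and 0.86 (each adjusted p = 0.868). Kcnip2, the KChIP2 subunit of Kv4 channels, gave normalized counts of 764, 964 and 1177 in Control, 1029, 1004 and 1298 in Islet1Cre;Ebf1fl/- and 517, 892 and 740.3 in Dlx5/6::Cre;Ebf1fl/- embryos, and the mutants did not overlap. The 95% interval lay within 1 of 0 for 61 of the 80 genes, and reached farther for the other 19.

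Of 20 genes that assist these channels without carrying a Kcn name, 17 were tested. Cntn2 alone was called lower in Islet1Cre;Ebf1fl/- embryos, as were 0.501% of all genes. In Dlx5/6::Cre;Ebf1fl/- embryos 0 of the 17 were called, beside 2.39% of all genes. Cntn2, an adhesion molecule that clusters Shaker channels along axons, gave normalized counts of 4268, 3253 and 2608 in Control, 1665, 1542 and 1883 in Islet1Cre;Ebf1fl/- and 2848, 1947 and 1976 in Dlx5/6::Cre;Ebf1fl/- embryos. The Islet1Cre;Ebf1fl/- embryos were all below the controls and the Dlx5/6::Cre;Ebf1fl/- embryos overlapped. Its log2 fold change was -0.9985 (adjusted p = 0.0384) and -0.58 (adjusted p = 0.161). The call in Islet1Cre;Ebf1fl/- embryos was lost on leaving out singly Control 1, Control 2 or any of the 3 Islet1Cre;Ebf1fl/- embryos (adjusted p = 0.0755 to 0.222). Its partner Cntnap2 had -0.07 and -0.02, and Dpp6, a Kv4 partner, 0.07 and 0.04. The median of the 17 was -0.08 and -0.19, beside -0.002 and 0.01 over all genes. In the respective mutants 11 and 13 of the 17 were below 0, as were 8259 and 7809 of all 16368 genes. Of 11 potassium pump and cotransporter genes 0 passed in either mutant, beside 0.971% and 2.39% of all genes in the respective mutants. Slc12a5, the chloride-extruding potassium cotransporter KCC2 of maturing neurons, gave normalized counts of 2936, 3394 and 3352 in Control, 4641, 4684 and 4825 in Islet1Cre;Ebf1fl/- and 3458, 4801 and 4894 in Dlx5/6::Cre;Ebf1fl/- embryos, all mutants above the controls. Its log2 fold change was 0.55 (adjusted p = 0.0758) and 0.44 (adjusted p = 0.0958). Slc12a2, of the same list, went the other way, with all mutants below the controls. Its log2 fold changes were -0.35 (adjusted p = 0.381) and -0.34 (adjusted p = 0.217).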

How the data were processed

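Striatal RNA of 9 embryos, 3 per genotype, was sequenced from 400 ng of total RNA with a stranded poly(A) kit. The values deposited are raw read counts for each Ensembl gene. The authors aligned reads with STAR 2.4.0k to the genome of Ensembl 81, discarded reads with several positions, which lowers genes with near-identical copies, and counted with HTSeq 0.5.3. Of 75-base transcript windows, more than 2% were shared with another gene only for Kcnj14 and Kcnk4.

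From the counts, edgeR 4.0.16 (R 4.3.3) fitted all 9 libraries with 3 groups, TMM scaling, filterByExpr (minimum count 10) and the quasi-likelihood test, with Benjamini-Hochberg adjustment over 16368 genes and a threshold of 0.05. The standard error is the log2 fold change over the root of F. Normalized counts use DESeq2 1.42.0 size factors. The fit was tested on simulated data. Symbols are those of GENCODE M21, which held 44133 of 44886 identifiers. Labels gave the groups, and each library was taken as 1 embryo and 1 replicate.

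Genes named were those past the threshold in any comparison, the 10 highest in Control per length, the smallest p of each class, and those with a mean of at least 100 normalized counts and all mutant embryos on the same side of the controls. Other members are given by class, and a few members are counted but not reported singly or drawn here. The members and lists were chosen with earlier results of these data known. Alternatives were DESeq2, other scaling and filters, only the compared samples, the code prefix, a replicate block and leaving out each embryo. Leaving out the 2 libraries with Xist and Y-linked counts, with or without Dlx5/6::Cre;Ebf1fl/- embryo 1, was chosen after seeing the data.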

Additional observations from a re-analysis of the deposited data

How the results depend on the processing

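The number of potassium channel genes called depended on the fit. In Islet1Cre;Ebf1fl/- embryos the count of 0 became 6 with DESeq2 (2.35% of all genes called, against 0.971%), and 3 with no filter on low counts (1.17%), with only the 6 samples compared (1.62%), with only embryos of the IE prefix (1.03%), and without both libraries of mixed Xist and Y-linked counts and Dlx5/6::Cre;Ebf1fl/- embryo 1 (1.52%). Each embryo left out gave 0 to 6 (0.0904 to 2.38% of all genes), the 6 (Kcna6, Kcnh7, Kcnip1, Kcnk13, Kcnq5 and Kcnt2) without Dlx5/6::Cre;Ebf1fl/- embryo 1. In Dlx5/6::Cre;Ebf1fl/- embryos the count of 3 became 8 with DESeq2 (5.27% of all genes, against 2.39%), 6 with no filter (2.67%), 1 with only the 6 samples compared (1.13%), 0 with the code prefix as a covariate (0.196%) and 1 without both libraries of mixed counts (0.83%). Each embryo left out gave 1 to 6 (0.862 to 3.68% of all genes). The 6 came without Dlx5/6::Cre;Ebf1fl/- embryo 1, 2, Kcna6 among them, without Control 2, and 1, Kcna6, without any of the other 7. Kcna6 kept its call in Dlx5/6::Cre;Ebf1fl/- embryos in 17 of 18 alternatives, and Kcnip1 and Kcnk13 in 7 of 18. The mutants differed in 0 potassium channel genes under every alternative run. Over the named genes, 526 of 592 alternative values kept direction and side of the threshold, 36 newly passed, 29 were lost and 1 turned, Kcnj3 in Islet1Cre;Ebf1fl/- embryos, which without Control 1 was -0.077 and with each embryo left out ran up to 0.32. The causes were not tested.

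Embryos share the numbers 1 to 3 across groups, but deviations of same-numbered embryos had a mean correlation of -0.03 (range -0.25 to 0.25). No pairing by number was seen, though 9 correlations with 3 embryos per group cannot settle it. A replicate block gave 0, 3 and 0 calls in the 3 comparisons, as without it. With 3 embryos per group and as few as 16.5 M counts, the median 95% interval of a gene without a call reached 0.43 on either side on the log2 scale.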

Other observations

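Of 5 antisense RNA genes named after potassium channels, which are not protein-coding and enter no count above, 4 were tested and 0 passed in either mutant. Kcnq1ot1, the imprinted antisense transcript of the Kcnq1 locus, gave normalized counts of 140.2, 55.5 and 54.8 in Control, 55.7, 76.6 and 80.5 in Islet1Cre;Ebf1fl/- and 62.6, 47.4 and 44.0 in Dlx5/6::Cre;Ebf1fl/- embryos, with Control 1 far above the other 8. Its log2 fold change was -0.24 (edgeR adjusted p = 0.999) and -0.71 (edgeR adjusted p = 0.383) in the respective mutants. Kcnmb4os2, antisense to the abundant Kcnmb4, gave normalized counts of 317, 281 and 204 in Control, 247, 190.1 and 218 in Islet1Cre;Ebf1fl/- and 179, 253 and 231 in Dlx5/6::Cre;Ebf1fl/- embryos, and each mutant overlapped with the controls. Kcnd3os, antisense to Kcnd3, had -0.27 and -0.12 on the log2 scale, while Kcnab3os had 0.01 and -0.74.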
